A study of Arabidopsis thaliana with 2 samples.

Results

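The floral organ identity MADS-box genes are a set of 10 Arabidopsis thaliana genes chosen by locus, out of 37887 nuclear genes in the gene table used here. They are AGAMOUS (AG), PISTILLATA (PI), APETALA3 (AP3), SEPALLATA1 to SEPALLATA4 (SEP1, SEP2, SEP3, SEP4), SHATTERPROOF1 and SHATTERPROOF2 (SHP1, SHP2) and AGAMOUS-LIKE 6 (AGL6). A gene was taken to have a peak if the deposited annotation gave it either as the nearest promoter of that peak or as the locus at its centre.

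The peaks come from chromatin immunoprecipitation and sequencing (ChIP-seq) for the transcription factor LEAFY (LFY) in inflorescence tissue. The series holds 1 immunoprecipitated library, for which whole rabbit serum against LFY was used, and 1 library of input chromatin. Both came from plants of the genotype ap1 cal1, mutant for the MADS-box genes AP1 and CAL, and both carried the construct 35S;LFY-GR. The plants were grown for 4 weeks and treated with 10 µM dexamethasone, and tissue was taken 4 h later. The 35S promoter drives the fusion of LFY with the glucocorticoid receptor domain in most cells, not only where LFY is normally made, and dexamethasone lets the fusion enter the nucleus. The serum can also recognise native LFY. There was no untreated library and no replicate, so replicate error could not be estimated and no test between conditions was possible. The list gives 529 peaks with a score (50.03 to 2952.29) from the authors' peak caller but no read counts, so the depth behind each peak is unknown. A peak list holds no expression values, and the labelled tissue could not be checked against marker transcripts.

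MADS-box organ identity proteins act in combinations that give each ring of floral organs its fate. AP3 and PI form a heterodimer that specifies petals and stamens, AG specifies stamens and carpels and ends the growth of the floral meristem, and the SEP proteins are the partners that hold these complexes together. LFY switches on several of these genes in young flowers, with UFO for AP3 and with WUS for AG, where the regulatory sequences lie in the second intron.

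Of the 10 genes, 4 had a peak (40%, 95% exact binomial interval 12.2 to 73.8%). Among all nuclear genes, 1.5% (570 of 37887) had one by the same rule, and among protein-coding genes 1.98% (543 of 27432). The 4 genes were SEP4, AG, AGL6 and PI, each with 1 peak. The other 6 genes, AP3, SEP1, SEP2, SEP3, SHP1 and SHP2, were neither the nearest promoter of a peak nor the locus in which one was centred. The interval covers counting error only, and the genes were chosen with earlier results of these data known.

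By role, the genes with a peak were spread over the groups. Among the B-class genes PI had a peak and AP3 did not. In the AG lineage, AG had a peak, and its close relatives SHP1 and SHP2, which specify the valve margins where the fruit opens, had none. Of the 4 SEP genes, SEP4 alone had a peak. AGL6, which belongs to the lineage nearest to the SEP genes and acts in axillary meristem formation in Arabidopsis, also had one. Whether genes with and without a peak differed in any of these groups was not tested.

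SEP4 (AT2G03710) had the highest-scoring peak of the set. It lay at chr2:1129247-1130772 (TAIR10) with a score of 470.88, rank 73 of 529, so that 86.2% of all peaks scored lower. The centre was in intron 1 of 7 of transcript AT2G03710.2, at 720 bp downstream of the transcription start site (TSS). The peak was 1526 bp wide and reached from 43 bp upstream of the TSS to 1483 bp downstream. It was the 3rd highest of the 38 peaks centred in an intron.

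AG (AT4G18960), the C-class gene, had a peak at chr4:10385583-10387157 with a score of 336.8 (rank 105, above 80.2% of peaks). The centre was in intron 2 of 8, the intron that carries the known regulatory sequences of AG, at 3514 bp downstream of the TSS. Its 1575 bp extended from about 2727 to 4302 bp downstream, so it was the only one of the 4 peaks that did not reach the TSS. Of all 529 peaks, 24 (4.54%) were centred 3000 bp or more downstream of the nearest TSS.

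AGL6 (AT2G45650) had a peak at chr2:18804276-18805276 with a score of 162.86 (rank 223, above 57.8% of peaks). The centre was in intron 1 of 7, at 426 bp downstream of the TSS. At 1001 bp it was the narrowest of the 4 and narrower than the median peak of the list, 1168 bp. AGL6 lies next to SOC1, a MADS-box gene that promotes flowering. SOC1 had a peak of its own at chr2:18813924-18815347, with a score of 53.71 (rank 505), near the list's lowest score of 50.03. The centre of that peak was 3588 bp upstream of the SOC1 TSS, at the 3′ end of AT2G45670. The gap between the AGL6 peak and the SOC1 peak was 8647 bp, and 22.9% of all peaks had another peak closer than that.

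PI (AT5G20240), the partner of AP3, had the lowest-scoring peak of the set. It lay at chr5:6827738-6829254 with a score of 98.22 (rank 328, above 38.0% of peaks), below the list's median score of 132.77. The centre was in the promoter, 546 bp upstream of the TSS. The peak was 1517 bp wide and reached 212.5 bp past the TSS. It ranked 126th by score among the 214 peaks annotated to promoters.

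**Figure D1:**
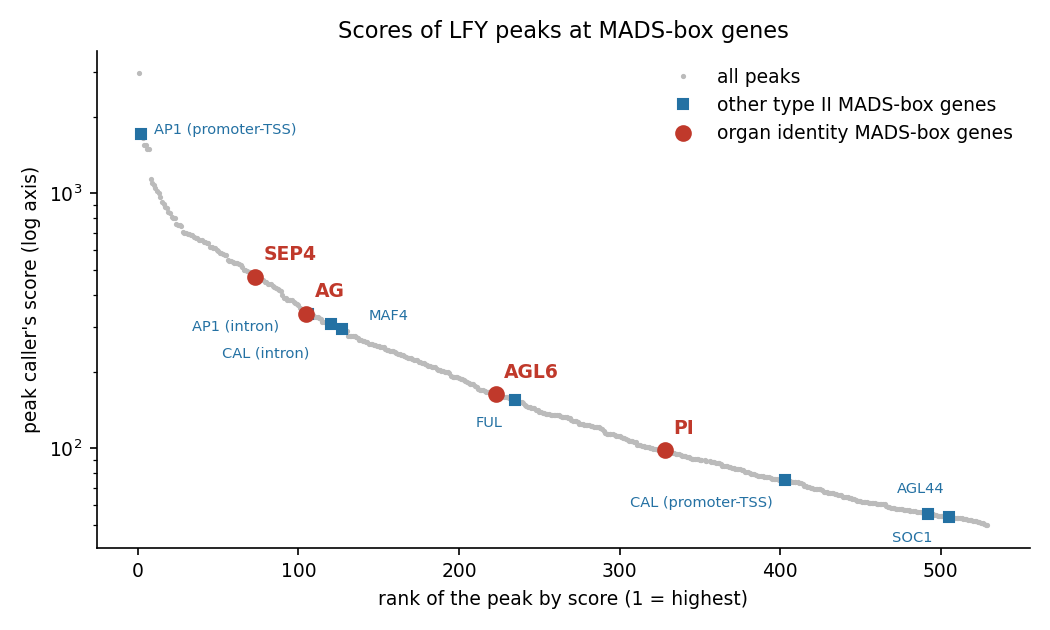
Score of each of the 529 peaks (y axis, peak caller's units, log axis) against its rank by score (x axis). Red circles are the peaks of organ identity MADS-box genes, blue squares those of other type II MADS-box genes (the AP1 intron peak lies under the AG circle) and grey points all peaks. SEP4, AG and AGL6 lie above the median score of 132.77 and PI lies below it.

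The 4 peaks had a median score of 249.83, against 132.77 over all peaks, and 3 of the 4 were above the overall median. With the SOC1 peak, which is assigned to the gene next to AGL6, the median was 162.86 over 5 peaks. Their median width was 1521.5 bp against 1168 bp, and again 3 of the 4 were above it, AGL6 being the exception. Over the whole list, Spearman's rho between width and score was 0.192 (529 peaks, all from the same pair of libraries). With 4 peaks these are descriptions, not tests.

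The count of genes with a peak varied with how strictly peaks were chosen. Among the 265 higher-scoring peaks, 3 of the 10 genes had one (SEP4, AG and AGL6), against 0.755% of all nuclear genes. Among the 133 highest-scoring peaks, 2 did (SEP4 and AG), against 0.377%. When the centre had to lie within 3000 bp of a TSS, AG was lost and 3 remained, against 1.36% of all genes. The same 3 genes had a peak within 1000 bp, against 0.866%. When peaks of the next protein-coding gene on either side were counted as well, SEP3 joined the 4 and the share of all genes was 3.86%. Only protein-coding genes could gain a peak in this way, so this share is low for a set of protein-coding genes.

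**Figure D2:**
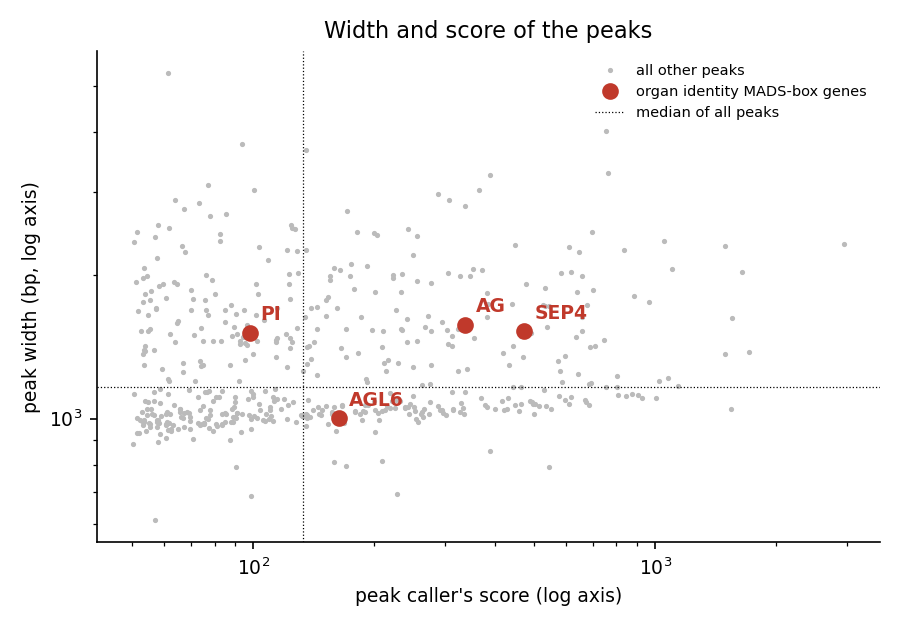
Peak width in bp (y axis, log axis) against score (x axis, peak caller's units, log axis), with 1 point per peak and dotted lines at the medians of all peaks, 1168 bp and 132.77. AG, SEP4 and PI have widths between 1517 and 1575 bp at different scores, and AGL6 has 1001 bp.

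Most of the 4 peaks were centred in an intron of their gene. This held for 3 of the 4, whereas 38 of 529 peaks (7.18%) were centred in an intron. Other classes within genes held 66 peaks in exons (12.5%), 8 in 5′ UTRs and 7 in 3′ UTRs. The remaining peak of the 4, at PI, was in a promoter, a class that held 214 peaks (40.5%). The peaks at SEP4, AGL6 and PI covered the TSS of their gene, as did 241 of all 529 peaks (45.6%). In all 4 cases the locus of the nearest promoter was also the locus of the annotation, which held for 331 of the 408 peaks with a locus in the annotation (81.1%). The assignment of these 4 peaks therefore did not depend on which of the 2 annotations was used.

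**Figure D3:**
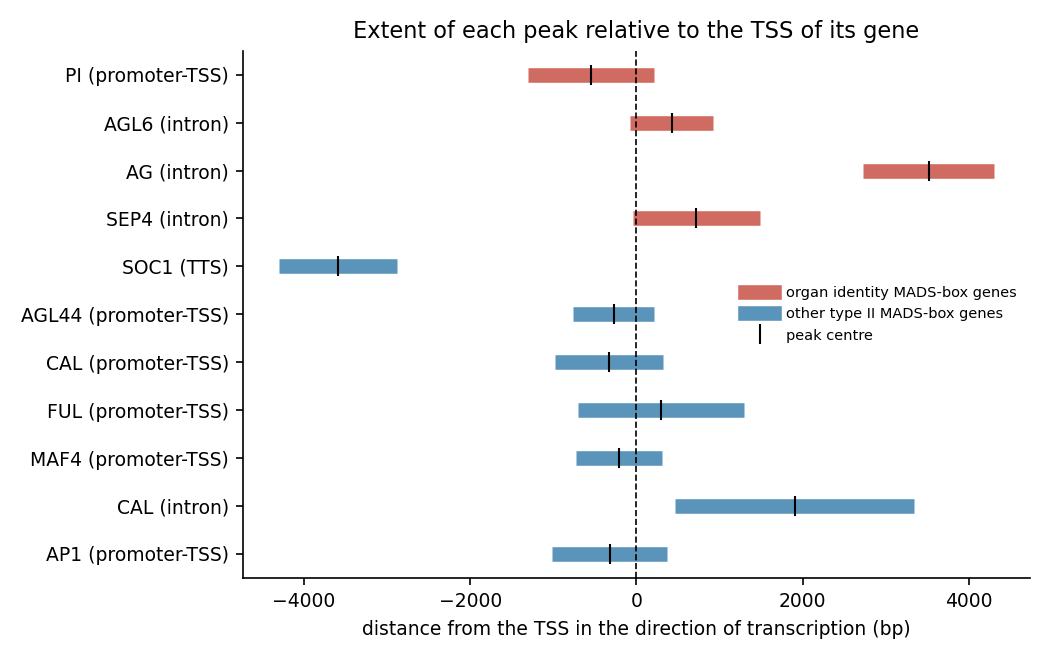
Extent of each peak (bars) relative to the TSS of its nearest gene, in bp along the direction of transcription, with a tick at the peak centre and a dashed line at the TSS. Red bars are organ identity MADS-box genes and blue bars other type II MADS-box genes. The bars of SEP4, AGL6 and PI cross the line and that of AG lies wholly downstream; the peak in AP1 intron 4 is left out, because its nearest promoter is that of AT1G69110.

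The surroundings of the 4 peaks varied, and the AG peak stood far from others. Its nearest other peak, at AT4G17840 (score 58.58), was 464712 bp away, and 97.4% of all peaks had a nearer neighbour. On the other side of AG, 929022 bp held no peak. The SEP4 peak had its nearest neighbour 88612 bp away, at NRP1 (score 210.91). On its other side the next peak was 3919548 bp away, the largest gap between consecutive peaks in the list. Between SEP4 and the gene of that peak, AT2G12461, stood 1167 genes, of which only 416 were protein-coding. PI had a weak peak close by, 13187 bp away in the promoter of AT5G20190 (score 51.75). The median distance from a peak to its nearest neighbour was 50213 bp.

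For the 6 genes without a peak, the nearest genes with one were looked up in the gene order. SEP3, a partner in most organ identity complexes and a gene reported before as a LFY target, was the only one of the 6 with a peak assigned to an adjacent protein-coding gene. That gene, AT1G24265, was the nearest promoter of an intergenic peak at chr1:8598089-8599418. That peak had a score of 95.06 (rank 335), and its centre was 1712 bp upstream of the AT1G24265 TSS. Only the non-coding gene AT1G05863 stood between SEP3 and AT1G24265 in the order of all genes. The distance from this peak to the SEP3 TSS was not measured, so whether the peak lies in the upstream region of SEP3 is not known here. On the other side of SEP3, 11 genes separated it from AT1G24160 (score 71.31).

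SHP2 was also near a peak in the gene order. That peak, at chr2:17810759-17812251, had a score of 88.46 and lay at the 3′ end of AT2G42810, with RLP29 (AT2G42800) as its nearest promoter. Between SHP2 and AT2G42810 stood 1 gene, HVA22F. On the other side of SHP2, 18 genes lay before AT2G42970 (score 61.10). Its paralogue SHP1 was farther from any peak, with 24 genes before AT3G58980 (score 89.50) on one side and 66 before AT3G58193 (score 92.72) on the other.

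SEP2 lay between peaks that both scored above the list's median of 132.77. On one side, 8 genes separated it from AT3G02250, where a peak scoring 221.99 was centred in the 3′ UTR. On the other, 17 genes lay before SAMDC, a gene of polyamine synthesis, with a promoter peak scoring 250.04. The stretch without a peak that held SEP2 was 82908 bp long, below the median gap of 108121 bp between consecutive peaks.

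In the gene order, SEP1 and AP3 were the farthest of the 6 from a gene with a peak. SEP1 sat in a stretch of 957465 bp without a peak, longer than 97.1% of the 524 gaps between consecutive peaks. The peak at its near end was in the promoter of GASA4, a gibberellin-responsive gene, with a score of 641.68 and 72 genes between. At the far end, with 259 genes between, was CAX7 (score 57.66). AP3 sat in a stretch of 689574 bp, longer than 95.2% of gaps. Its ends were AT3G53680 (score 110.81), with 73 genes between, and MIR172D (score 684.83, rank 34), with 148 genes between. MIR172D encodes a microRNA that represses the organ identity gene AP2. For SHP1, SHP2 and SEP3 the corresponding stretches were 239283, 60983 and 40327 bp, of which those of SHP2 and SEP3 were below the median gap.

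**Figure D4:**
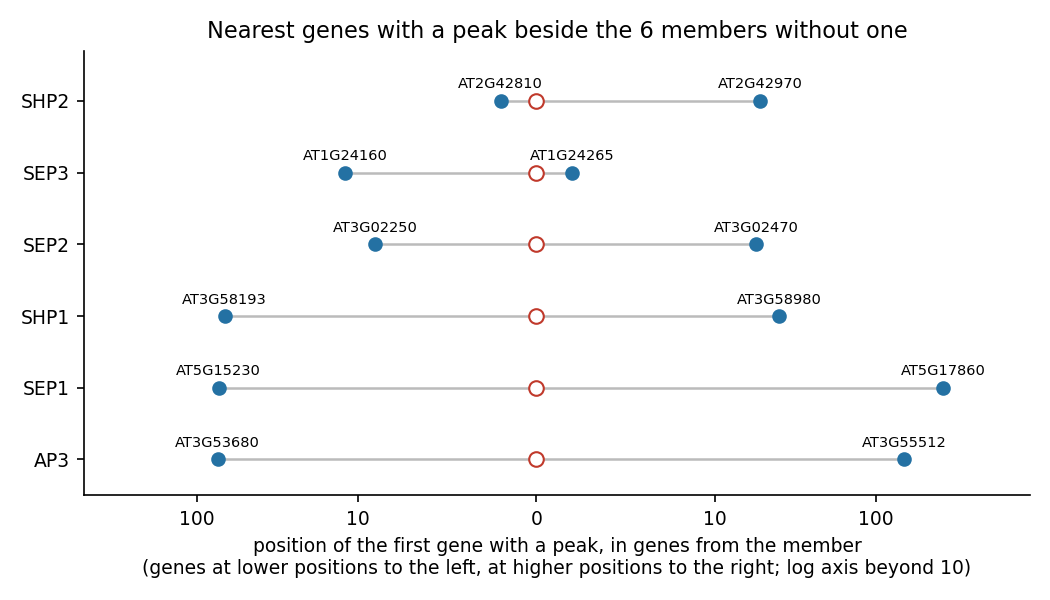
For each of the 6 organ identity MADS-box genes without a peak (open circles), the first gene with a peak on either side (filled circles), placed by its position in genes from the member (x axis, log axis beyond 10). SEP3 and SHP2 have 1 gene between them and a gene with a peak, and AP3 and SEP1 have 73 and 72 on their nearer side.

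Other genes of the pathway gave context. Of 29 other type II MADS-box genes, 6 had a peak (20.7%, exact interval 7.99 to 39.7%). These were AP1 and CAL, whose mutant alleles the plants carry, FUL, a fruit and meristem identity gene, SOC1, MAF4, a flowering repressor of the FLC group, and AGL44, a regulator of root growth in response to nitrate. AP1 had the highest score of the genes in both MADS-box lists, 1710.21 at its promoter (rank 2). The promoter peaks of MAF4 (295.23) and FUL (155.43) were within the range of the 4 organ identity peaks. Below that range were the promoter peak of AGL44 (55.42, rank 492) and the SOC1 peak described above (53.71). Both were near the lowest score of the list, 50.03. STK, the ovule identity gene of the AG lineage, and AGL13, the closest relative of AGL6, had no peak. FLC, SVP and AGL24 had none either.

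Of 18 regulators of organ identity outside the MADS-box family, 2 had a peak (11.1%, exact interval 1.38 to 34.7%). UFO, the F-box partner of LFY at AP3, had a peak scoring 158.43 by the nearest promoter alone. That peak was centred 681 bp downstream of the UFO TSS, at the 3′ end of AT1G30960. The other gene of the 2 was LFY itself, inside which a peak was centred (752.44, intron 2). Sequence from the LFY-GR construct, present in both libraries, cannot be told apart from the native gene here. AP2, WUS, SUP, LUG, SEU and PAN were among the 16 without a peak. Of 12 photosynthesis genes, taken as genes outside the pathway, 0 had a peak. This count allows up to 25% by the limit of 3 counts and 26.5% by the exact interval. At the share of all nuclear genes (1.5%) or of protein-coding genes (1.98%), most lists of 12 genes would have none, so the 0 gives no contrast. The interval of the organ identity genes (12.2 to 73.8%) overlapped those of all 3 other lists. The genes of each list were not random draws, so the overlap says nothing about differences between lists, which were not tested.

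**Figure D5:**
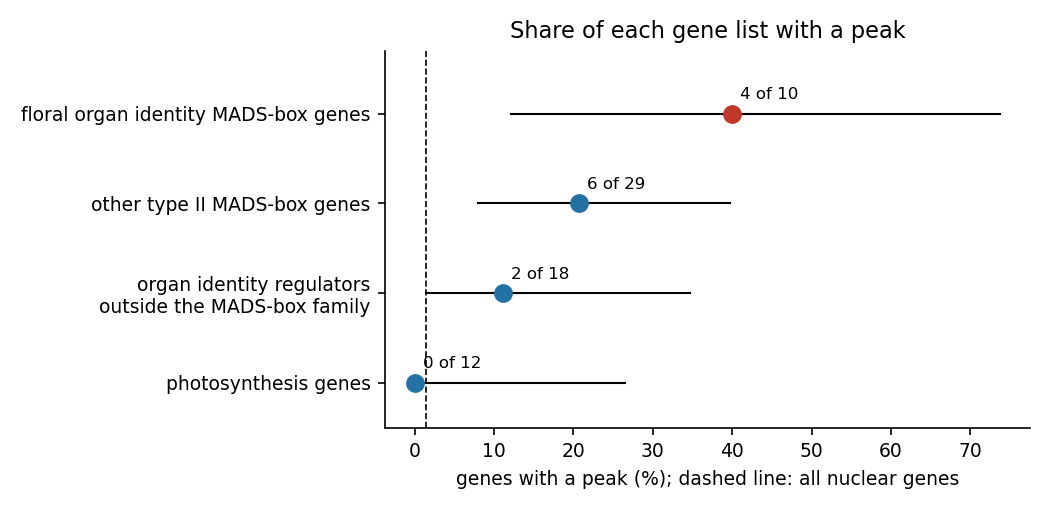
Share of genes with a peak in each list (x axis, percent), with 95% exact binomial intervals as lines, the counts beside the points and a dashed line at the share of all nuclear genes, 1.5%. The organ identity MADS-box genes have 40%, the other type II MADS-box genes 20.7%, the regulators outside the family 11.1% and the photosynthesis genes 0.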

How the data were processed

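A single peak list was deposited. HOMER's annotatePeaks.pl assigned genes (tair10) to peaks of the LFY library called against a contrast, per the file headers. The tools and build were FastQC, MACS 1.4, HOMER and TAIR10, per the submitters' processing notes, and per the labels' protocols chromatin was sheared to about 200 to 500 bp. Not given in the sources used here are the aligner, the calling threshold, the handling of duplicate and multiply matching reads, pooling and the name of the contrast library. Reads shared by close paralogues could be lost or split between them.

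The score of each peak is the authors' deposited value. Its scale is not stated, and it served only to rank and filter. The other deposited values are positions and TSS distances in bp, whose extents around the TSS were computed from the distance and the width, with the peak centred on the distance. Gene order and names came from a RefSeq table (TAIR10.1), which held all 69 list loci and 570 of the 584 loci named by a peak. Its coordinates were not printed. The members and lists were chosen with earlier results of these data known. Named are all members, the flanking genes with a peak and list genes with a peak; list genes without a peak were picked after their values were seen. Counts carry exact binomial intervals, and a count of 0 the share that 3 counts allow. No test was run, since there was 1 library per group. Motif matches and protein comparisons were planned but need sequences, which were not used here. Functions were checked on simulated data. Python 3.11.15, pandas 2.3.3, NumPy 2.4.6, SciPy 1.17.1 and matplotlib 3.10.9 were used.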

Additional observations from a re-analysis of the deposited data

How the results depend on the processing

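The 4 organ identity genes with a peak were the same under the nearest promoter alone (1.32% of all genes), the annotation locus alone (1.04%), adjacent genes of any class included (4.02%) and the widest peaks left out (476 of 529 kept, 1.36%). Adjacent protein-coding genes added SEP3 (5 genes). The higher-scoring 265 peaks left 3 genes, without PI, and the highest-scoring 133 left 2, SEP4 and AG. Limits of 3000 and 1000 bp to the TSS each removed AG (3 genes). The share of all genes with a peak was 1.98% for protein-coding genes and 0.755% with the higher-scoring peaks. The median score was 163 with the SOC1 peak, brought in by adjacent genes, included, and the median width was 1526 bp over the higher-scoring peaks, which left PI out. No paired analysis was possible because there was 1 library per group. The unknown depth limits what the absence of a peak says.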

Other observations

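Of the 39 type II MADS-box genes in both lists, 10 had a peak and 5 had one centred in an intron, against 37 of 37887 nuclear genes (0.0977%) with an intron-centred peak. The 5 were SEP4, AG and AGL6, described above, and the mutated genes AP1 and CAL. The intron peaks of AP1 and CAL were both in intron 4 of 7, with scores of 336.58 and 307.06 and widths of 2805 and 2878 bp. Each lay close to a promoter peak of the same gene. The gap was 410 bp at AP1 (promoter peak score 1710.21) and 142 bp at CAL (promoter peak score 75.03). The intron peaks of SEP4, AG and AGL6 were in introns 1, 2 and 1, with widths from 1001 to 1575 bp. Over all intron peaks the median score was 125.7 and the median width 1563 bp, and 16 were in intron 1. The intron peaks of SEP4 and AGL6 also covered the TSS. The share of nuclear genes takes in non-coding genes (27432 are protein-coding), and the number and length of introns were not matched. This grouping was noticed after the values were seen and was not tested.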
